A study of Rattus norvegicus with 19 samples.

Results

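The mitochondrial ribosomal protein genes were taken as every gene symbol in the count files that starts with Mrpl or Mrps followed by a digit. The rule used names alone, and it took 71 of 17455 genes, of which 43 are named Mrpl and 28 Mrps. By the present nomenclature 45 of them encode proteins of the large subunit, Mrps18a and Mrps30 included, and 25 proteins of the small subunit. Mrps36 is counted with neither subunit, because its product is now known as a component of the alpha-ketoglutarate dehydrogenase complex. All 71 passed the filter on low counts, among 12388 genes tested.

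The hearts came from Sprague-Dawley rats that were 24 weeks old when the experiment began, in a model of heart failure with preserved ejection fraction (HFpEF). Bulk RNA of 19 hearts in 7 groups was sequenced, to compare empagliflozin (EMPA, an inhibitor of the renal sodium-glucose cotransporter), pirfenidone (PFD, an antifibrotic drug) and their combination with untreated disease. The rats labelled control 5w (n = 3) and control 9w (n = 3) had normal chow and water without L-NAME, and their hearts were taken at weeks 5 and 9. The rats labelled HFpEF (n = 3) drank L-NAME, an inhibitor of nitric oxide synthases, at 0.5 g/L and ate a high-fat diet with 60% of its kilocalories from lard, and their hearts were taken at week 5. The other 4 groups were first brought to week 5 in the same way and then gavaged daily for 4 weeks, up to week 9. Untreated rats (n = 3) received the saline vehicle, EMPA rats (n = 2) received 0.35 g/kg of empagliflozin a day, PFD rats (n = 2) received 0.3 g/kg of pirfenidone a day, and EMPA + PFD rats (n = 3) received both doses. The model combines a diet and an enzyme inhibitor in otherwise wild-type animals. The study's methods give it 5 weeks and its discussion 9, so it is unclear whether diet and inhibitor went on during the gavage, and with it what untreated against control 9w compares.

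Mammalian mitochondria translate the few proteins encoded by their own DNA, all of them subunits of the oxidative phosphorylation complexes, on ribosomes of their own. The RNA of these ribosomes comes from the mitochondrial genome, while their proteins are encoded in the nucleus, translated in the cytosol and imported. Many of these proteins have bacterial homologues and the others are found only in mitochondrial ribosomes, and heart muscle, which is rich in mitochondria, depends on their products.

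Total counts ran from 7430539 in EMPA 1 to 13017754 in control 5w 2, and the summed counts of the members from 28722 in untreated 2 to 64090 in control 5w 1. Several libraries went against their labels or stood apart. Every heart is labelled male, and the study's methods say that RNA was taken from the left ventricle. Eif2s3y, a Y-linked translation factor gene, had 0 counts in 7 libraries, namely HFpEF 1, HFpEF 3, all 3 untreated and both PFD libraries, and 613 to 1321 counts in the other 12. RT1-CE16, a class I gene of the rat major histocompatibility complex, had 308 to 922 counts in the 11 libraries of control 9w, untreated, PFD and EMPA + PFD, and 0 to 3 in the other 8. Myl4, the atrial essential myosin light chain, had 2702 to 19668 counts in control 9w 1, control 9w 3 and untreated 2, and 24 to 436 in the other 16. The part of these differences between libraries in the members' results was not tested, apart from the omissions given below. Control 5w 1 and untreated 2 stood apart for the members themselves, as described next, and each count of called members is given with and without them.

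Levels are given as CPM, counts relative to the library's total after TMM scaling, and the members' mean level on the log2 scale ranged widely within control 5w and within untreated. It was 6.09, 5.24 and 5.30 in control 5w 1, 2 and 3, 4.84, 5.16 and 5.39 in HFpEF, and 5.38, 5.51 and 5.36 in control 9w. At week 9 it was 5.80, 4.75 and 5.72 in untreated, 5.66 and 5.50 in EMPA, 5.85 and 5.81 in PFD and 5.91, 6.02 and 5.88 in EMPA + PFD. Control 5w 1 was the highest library of all and untreated 2 the lowest, so that control 5w overlapped with every other group, and untreated with control 5w, HFpEF, control 9w and EMPA but not with PFD or EMPA + PFD, which lay above it. The pooled SD between libraries of a group was 0.308 on this scale. As a share of the total count the members held 0.551% in control 5w 1, 0.283% in untreated 2 and 0.276%, the lowest value, in HFpEF 1. Relative to the median of all tested genes in the same library, the mean level again was highest in control 5w 1 (1.34) and lowest in untreated 2 (0.03). In bulk tissue, fewer cells of a type and less RNA per cell cannot be told apart.

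**Figure D1:**
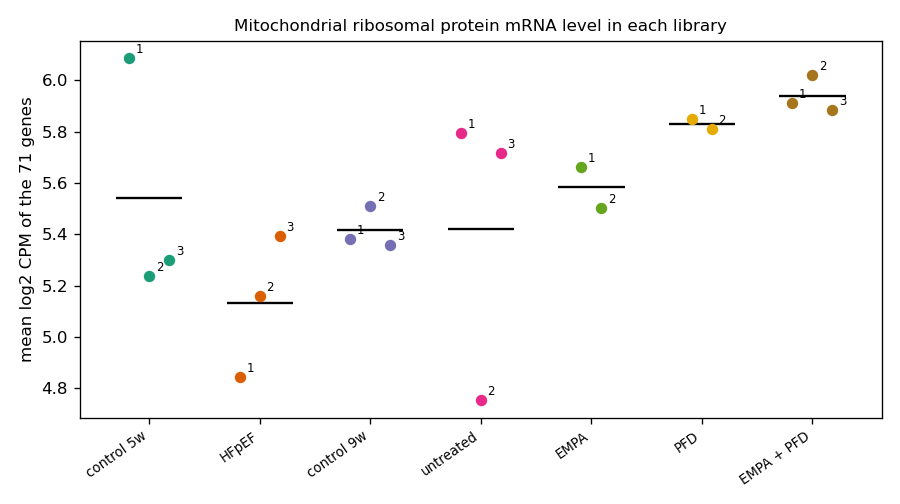
Mean log2 CPM of the 71 members in each of the 19 libraries, by group. Each point is a library; control 5w 1 stands highest at 6.09 and untreated 2 lowest at 4.75.

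These library differences ran through nearly the whole list. Control 5w 1 held the highest value of its group in 71 of 71 members, with a median log2 ratio of 0.81 to the mean of the other libraries of its group. Untreated 2 held the lowest value of its group in 69 members (median log2 ratio −0.99), and in the other members, Mrpl52 and Mrps26, it held the highest. HFpEF 1 was lowest of its group in 62 members and HFpEF 3 highest in 60. Of all 19 libraries, control 5w 1 was highest for 33 members and EMPA + PFD 2 for 17, while untreated 2 was lowest for 39 and HFpEF 1 for 23. By group mean, 49 members were highest in EMPA + PFD and 15 in PFD, and 55 were lowest in HFpEF. The ratio of the highest to the lowest library had a median of 2.87 over the members, and it ran from 1.56 for Mrps33 to 15.2 for Mrpl36, a gene of few counts. Mrps33, Mrpl52, Mrpl23 and Mrpl20, named after their values were seen, had the smallest ratios, each under 2.

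Markers of the tissue's cell types also differed between these libraries. All 9 ventricular cardiomyocyte markers were in the files and none was at 0, and Myh6, the alpha myosin heavy chain, had the highest CPM of them in the mean of the 19 libraries. The gene said below to lead a list likewise has its highest mean CPM, which is not divided by gene length. The summed level of the 9 cardiomyocyte genes was 89238, 44389 and 48656 CPM in control 5w, 14202, 21760.1 and 38245 in HFpEF and 37557, 43677 and 38939.5 in control 9w. It was 67040.1, 18179.9 and 60903 CPM in untreated, 51172 and 41948 in EMPA, 69333 and 71689 in PFD and 80975, 96506 and 76195 in EMPA + PFD. The summed level was lowest in HFpEF 1 and untreated 2, the libraries lowest for the members, and all 3 EMPA + PFD libraries stood above every HFpEF library and every untreated library. The 7 fibroblast markers, led by Col3a1, ran the other way within control 5w, at 4459.8, 40884 and 32939.6 CPM, and stood at 16039.5, 9501 and 11841 in HFpEF and 4278, 3038 and 4476 in control 9w. They were at 3889, 8141 and 3658 CPM in untreated, 3612 and 7355 in EMPA, 4286 and 3838 in PFD and 4644, 2012 and 3921 in EMPA + PFD, so that every week 9 library was below every HFpEF library. The 5 atrial markers, led by Nppa, were at 3284, 6124 and 4649 CPM in control 5w, 2086, 272 and 1968 in HFpEF, 5197, 188 and 23340.2 in control 9w and 48.0, 14872 and 484 in untreated. They were at 698 and 5172 CPM in EMPA, 2983 and 62.6 in PFD and 86.4, 381 and 153 in EMPA + PFD, and untreated 2, the lowest library for the members, held the second highest level. Nppa alone held 5794 of the 6124 CPM in control 5w 2 and 5124 of the 5172 in EMPA 2. Sln had 1387 to 6975 counts and Bmp10 277 to 1270 in control 9w 1, control 9w 3 and untreated 2. Elsewhere Sln had 2 to 49 and Bmp10 1 to 8 counts, while Myl7 had 3779 to 7368 in control 5w. The sum thus does not follow Sln and Bmp10 there. The 8 leukocyte markers, led by Lyz2, were at 464, 1845 and 1466 CPM in control 5w, 2402, 473 and 1352 in HFpEF, 286, 242 and 313 in control 9w and 325, 605 and 345 in untreated. They were at 463 and 496 CPM in EMPA, 361 and 285 in PFD and 246, 223 and 302 in EMPA + PFD. None of the fibroblast, atrial or leukocyte markers was at 0 counts in any library. The 6 endothelial markers, led by Vwf and with none at 0, ranged from 1249 in control 5w 2 to 3180.1 in control 9w 1. Smooth muscle and pericyte markers (6 genes, led by Pdgfrb and with none at 0) ranged from 741 in EMPA + PFD 2 to 2865 in EMPA 2, and adipocyte markers (5 genes, led by Fabp4, with Adipoq, Plin1, Lep or Cidec at 0 in 11 libraries) from 541 in control 5w 2 to 3653 in control 9w 2. Fabp4 alone held 3652.4 of the 3652.9 CPM in control 9w 2, and Adipoq and Plin1 had at most 31 and 21 counts. The range is thus that of Fabp4. Erythroid markers (4 of 5 genes used, led by Hbb, with Hba1 at 0 in 17 libraries) ranged from 137 in EMPA + PFD 1 to 3637 in HFpEF 3, and skeletal muscle markers (6 genes, led by Acta1, which the heart also expresses, with Myh1 or Myh4 at 0 in 7 libraries) from 583 in untreated 2 to 6729 in control 5w 1. The part of these cell markers in the members' results was not tested.

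Each difference that follows is a log2 fold change with its standard error (SE) from edgeR's quasi-likelihood test in a model of all 19 libraries, with Benjamini-Hochberg adjustment over the 12388 genes. A gene is said to have risen or fallen where its adjusted p was under 0.05, and the study's own minimum of a 2-fold change is given beside the counts of members. Apart from the marker with the highest CPM of each list, levels are compared between libraries and not between genes. Counts of members with libraries left out or in other edgeR fits are given without the share of all genes there. They do not show whether the members differed from other genes in those fits.

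The stalk of the large subunit recruits the factors that drive translation, and its base, Mrpl10, rose with EMPA + PFD, while its arms, Mrpl12, did not pass the test. Mrpl12 was at 294, 114 and 128 CPM in control 5w, 78.7, 169 and 179 in HFpEF, 161, 217 and 156 in control 9w and 253, 80.5 and 207 in untreated. It was at 240.2 and 174 CPM in EMPA, 225 and 232 in PFD and 261, 227 and 226 in EMPA + PFD. Its HFpEF libraries overlapped with those of control 5w, and no comparison passed the test, the one between EMPA + PFD and HFpEF included (0.74 ± 0.41 SE, adjusted p = 0.149). Mrpl10 was at 65.7, 46.2 and 45.7 CPM in control 5w, 37.5, 32.1 and 40.9 in HFpEF, 33.1, 32.3 and 43.1 in control 9w and 50.3, 27.4 and 44.8 in untreated. It was at 45.0 and 44.6 CPM in EMPA, 56.9 and 52.9 in PFD and 62.0, 70.8 and 59.9 in EMPA + PFD. All 3 EMPA + PFD libraries were above all 3 libraries of HFpEF and of untreated. Mrpl10 rose in EMPA + PFD against untreated (0.65 ± 0.20 SE, adjusted p = 0.0472) and against HFpEF (0.80 ± 0.20 SE, adjusted p = 0.00584). The call against untreated was lost with any library other than control 5w 1, HFpEF 2, control 9w 3, untreated 1 or EMPA + PFD 1 left out (adjusted p from 0.0223 to 0.182 over 19 omissions), and it was lost with upper quartile scaling and with a looser filter on low counts as well, while the call against HFpEF held with each library left out. Mrpl10 overlaps Lrrc46 in the rat annotation, and how the counting treated reads in such overlaps is not stated.

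Mrpl3, Mrpl4 and Mrpl15 are homologues of bacterial proteins in the core of the large subunit. Mrpl3 was at 212, 122 and 118 CPM in control 5w, 61.1, 60.2 and 82.2 in HFpEF and 64.4, 59.4 and 79.7 in control 9w. At week 9 it was at 167, 49.4 and 129 CPM in untreated, 90.3 and 80.3 in EMPA, 158 and 160.3 in PFD and 205, 235 and 238 in EMPA + PFD. Every control 5w library was above every HFpEF and control 9w library, and untreated 2 was the lowest of all. EMPA + PFD lay above HFpEF, control 9w, untreated, EMPA and PFD without overlap, though Mrpl3 was not called against untreated. Mrpl3 fell in HFpEF against control 5w (−1.15 ± 0.33 SE, adjusted p = 0.0260) and in control 9w against control 5w (−1.15 ± 0.33 SE, adjusted p = 0.0156), and rose in EMPA + PFD against HFpEF (1.74 ± 0.33 SE, adjusted p = 0.00141). The call in HFpEF was lost without control 5w 1, HFpEF 1 or HFpEF 2 (adjusted p = 0.109, 0.0742 and 0.0817, within 0.00265 to 0.109 over 19 omissions) and the call in control 9w without control 5w 1, control 9w 1 or control 9w 2 (adjusted p = 0.0676, 0.0535 and 0.0662, within 0.00127 to 0.0676 over 19 omissions), while the rise against HFpEF held with each library left out (adjusted p from 7.60e-05 to 0.00788). Mrpl15 was at 164, 89.1 and 107 CPM in control 5w, 55.8, 53.3 and 66.7 in control 9w, 48.8, 41.8 and 84.8 in HFpEF and 159.9, 175 and 147 in EMPA + PFD. It fell in control 9w against control 5w (−1.03 ± 0.36 SE, adjusted p = 0.0371), a call that was lost without control 5w 1, control 5w 3, control 9w 1, control 9w 2 or control 9w 3 (adjusted p = 0.134, 0.0586, 0.0998, 0.116 and 0.0543, within 0.00543 to 0.134 over 19 omissions). It rose in EMPA + PFD against HFpEF (1.46 ± 0.36 SE, adjusted p = 0.00550) with no overlap between the groups, as did Mrpl4 (1.37 ± 0.34 SE, adjusted p = 0.00599), whose protein lines the exit tunnel and which was at 44.3, 59.6 and 74.6 CPM in HFpEF and 149, 167 and 145 in EMPA + PFD. Of the other homologues, Mrpl16 (1.32 ± 0.35 SE), Mrpl35 (1.24 ± 0.32 SE), Mrpl19 (1.15 ± 0.37 SE) and Mrpl47 (1.06 ± 0.32 SE) rose at least 2-fold in the same comparison. The call of Mrpl19 was lost without HFpEF 1 or EMPA + PFD 2 (adjusted p = 0.0793 and 0.0645, within 0.00391 to 0.0793 over 19 omissions) and that of Mrpl47 without HFpEF 1 (adjusted p = 0.0662, within 0.00286 to 0.0662 over 19 omissions). Mrpl17 fell in control 9w against control 5w (−0.64 ± 0.21 SE, adjusted p = 0.0307), which was lost without control 5w 1, control 9w 1 or control 9w 2 (adjusted p = 0.145, 0.0826 and 0.113, within 0.00650 to 0.145 over 19 omissions). Mrpl30, another homologue, had the largest difference between EMPA + PFD and HFpEF (2.74 ± 0.81 SE, adjusted p = 0.0137), from 21, 19 and 27 counts in HFpEF to 18, 163 and 156 in EMPA + PFD, where the libraries of the groups overlapped. Its call was lost without EMPA + PFD 2 (adjusted p = 0.0545, within 0.00365 to 0.0545 over 19 omissions).

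The large subunit also holds proteins classed as specific to mitochondria, which take the place of lost ribosomal RNA or anchor the ribosome. Mrpl51 was at 119, 68.3 and 68.0 CPM in control 5w, 32.5, 42.0 and 44.9 in HFpEF, 46.5, 39.1 and 59.1 in control 9w and 91.0, 35.5 and 73.9 in untreated. It was at 57.8 and 47.0 CPM in EMPA, 82.5 and 90.0 in PFD and 101, 139 and 121 in EMPA + PFD. The control 5w libraries lay above those of HFpEF and control 9w, and the EMPA + PFD libraries above those of HFpEF. Mrpl51 fell in HFpEF against control 5w (−1.10 ± 0.30 SE, adjusted p = 0.0210) and in control 9w against control 5w (−0.82 ± 0.30 SE, adjusted p = 0.0451), and rose in EMPA + PFD against HFpEF (1.60 ± 0.30 SE, adjusted p = 0.00129). The call in HFpEF was lost without control 5w 1, HFpEF 1 or HFpEF 2 (adjusted p = 0.0932, 0.0701 and 0.0514, within 0.00489 to 0.0932 over 19 omissions) and the call in control 9w with any library other than control 5w 2, control 5w 3, HFpEF 1, control 9w 3, untreated 1, untreated 2 or EMPA + PFD 1 left out (adjusted p from 0.0120 to 0.205 over 19 omissions). Mrpl49, at 48.5, 31.3 and 31.1 CPM in control 5w, 21.4, 13.1 and 25.7 in HFpEF and 17.1, 16.7 and 20.7 in control 9w, fell in control 9w (−1.02 ± 0.30 SE, adjusted p = 0.0177) and in HFpEF (−0.88 ± 0.30 SE, adjusted p = 0.0499), again with no overlap with control 5w. The former call was lost without control 5w 1, control 9w 1 or control 9w 2 (adjusted p = 0.0669, 0.0595 and 0.0677, within 0.00334 to 0.0677 over 19 omissions) and the latter with any library other than HFpEF 3, untreated 1 or untreated 2 left out (adjusted p from 0.0118 to 0.178 over 19 omissions), and Mrpl49 overlaps Syvn1 in the annotation. Mrpl54 went the other way, from 119.8, 68.5 and 70.7 CPM in control 5w to 145, 186 and 121 in control 9w (0.80 ± 0.29 SE, adjusted p = 0.0441), a rise that was lost with any library other than control 5w 1, HFpEF 1, HFpEF 2, control 9w 3, untreated 1, untreated 2, untreated 3 or EMPA + PFD 1 left out (adjusted p from 0.0114 to 0.172 over 19 omissions). Mrpl45, which holds the ribosome to the inner membrane at the exit tunnel, was at 45.5, 51.0 and 75 CPM in HFpEF and 127, 142 and 136 in EMPA + PFD (1.24 ± 0.34 SE, adjusted p = 0.00897). Mrpl44, which has a fold related to ribonuclease III, was at 24.8, 29.9 and 41.2 and 61.5, 77.1 and 74.9 CPM in those groups (1.16 ± 0.29 SE, adjusted p = 0.00618), and both rises held with each library left out. The proteins of the central protuberance Mrpl38 (1.23 ± 0.36 SE), Mrpl40 (1.31 ± 0.37 SE) and Mrpl46 (1.06 ± 0.27 SE), and Mrpl50 (1.42 ± 0.32 SE), rose at least 2-fold in EMPA + PFD against HFpEF, the call of Mrpl38 being lost without HFpEF 1 (adjusted p = 0.0545, within 0.00276 to 0.0545 over 19 omissions). Mrps30 and Mrps18a, large subunit proteins in spite of their names, were at 45.9 ± 9.15 and 41.8 ± 4.23 CPM (mean ± SD, n = 3) in HFpEF and 90.6 ± 2.55 and 55.5 ± 1.61 in EMPA + PFD, where Mrps30 passed the test (0.98 ± 0.26 SE, adjusted p = 0.00724) and Mrps18a did not (0.41 ± 0.16 SE, adjusted p = 0.0538). Mrps18a fell in control 9w against control 5w (−0.52 ± 0.16 SE, adjusted p = 0.0258), which was lost without control 5w 1, control 9w 1 or control 9w 2 (adjusted p = 0.112, 0.0743 and 0.0781, within 0.00580 to 0.112 over 19 omissions).

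In the small subunit, which reads the messenger RNA, the homologues Mrps2 and Mrps10 were lower in HFpEF and control 9w than in control 5w. Mrps2 was at 72.8, 43.2 and 48.1 CPM in control 5w, 29.9, 30.0 and 30.7 in HFpEF, 31.4, 30.5 and 34.6 in control 9w and 52.3, 54.6 and 51.7 in EMPA + PFD. Mrps10 was at 26.2, 14.4 and 16.2 CPM in control 5w, 7.89, 10.3 and 10 in HFpEF, 8.57, 7.99 and 11.2 in control 9w, 16.2, 6.66 and 15.5 in untreated and 21.0, 19.7 and 21.7 in EMPA + PFD. For both genes, control 5w stood above HFpEF and control 9w without overlap, and EMPA + PFD above HFpEF. Mrps2 fell in HFpEF (−0.86 ± 0.21 SE, adjusted p = 0.0141) and in control 9w (−0.77 ± 0.21 SE, adjusted p = 0.0126) and rose in EMPA + PFD against HFpEF (0.81 ± 0.21 SE, adjusted p = 0.00720). Mrps10 fell in HFpEF (−1.01 ± 0.29 SE, adjusted p = 0.0248) and in control 9w (−1.03 ± 0.29 SE, adjusted p = 0.0141) and rose in EMPA + PFD against HFpEF (1.15 ± 0.29 SE, adjusted p = 0.00578). For Mrps2 the call in HFpEF was lost without control 5w 1 (adjusted p = 0.0585, within 0.00306 to 0.0585 over 19 omissions) and the call in control 9w without control 5w 1 or control 9w 2 (adjusted p = 0.0586 and 0.0508, within 0.00284 to 0.0586 over 19 omissions). For Mrps10 they were lost without control 5w 1, HFpEF 1 or HFpEF 2 (adjusted p = 0.112, 0.0800 and 0.0517, within 0.00449 to 0.112 over 19 omissions) and without control 5w 1, control 9w 1 or control 9w 2 (adjusted p = 0.0643, 0.0519 and 0.0623, within 0.00218 to 0.0643 over 19 omissions), in the same order, while the rises against HFpEF held for both genes with each library left out. Mrps2 overlaps Pierce1 in the annotation. Mrps5 was at 43.1, 42.5 and 52.6 CPM in HFpEF and 75.3, 81.7 and 82.3 in EMPA + PFD (0.79 ± 0.16 SE, adjusted p = 0.00157), and Mrps9 at 44.4, 65.7 and 77.4 and 136, 171 and 149 (1.28 ± 0.31 SE, adjusted p = 0.00491), both with no overlap. Mrps12, whose bacterial homologue takes part in the accuracy of decoding, was at 16.6, 20.4 and 27.5 CPM in HFpEF and 29.7, 38.5 and 32.2 in EMPA + PFD (0.64 ± 0.24 SE, adjusted p = 0.0378), a call that was lost without HFpEF 1, HFpEF 2, EMPA + PFD 2 or EMPA + PFD 3 (adjusted p = 0.149, 0.0891, 0.118 and 0.0556, within 0.00896 to 0.149 over 19 omissions).

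Of the small subunit proteins classed as specific to mitochondria, Mrps27 rose with EMPA + PFD, and Mrps26 rose in HFpEF and in control 9w against control 5w. Mrps27, a protein with pentatricopeptide repeats, was at 66.0, 32.2 and 34.5 CPM in control 5w, 26.5, 22.1 and 33.9 in HFpEF and 29.4, 34.2 and 27.9 in control 9w. It was at 51.5, 24.6 and 41.7 CPM in untreated, 41.7 and 45.5 in EMPA, 60.7 and 52.9 in PFD and 67.2, 96.2 and 77.7 in EMPA + PFD. All 3 EMPA + PFD libraries were above all libraries of HFpEF and untreated. Mrps27 rose in EMPA + PFD against untreated (1.04 ± 0.28 SE, adjusted p = 0.0332) and against HFpEF (1.55 ± 0.29 SE, adjusted p = 0.00116). The call against untreated was lost without untreated 2, untreated 3, EMPA + PFD 2 or EMPA + PFD 3 (adjusted p = 0.137, 0.0684, 0.132 and 0.0749, within 0.0117 to 0.137 over 19 omissions), and the call against HFpEF held with each library left out. Mrps26 was at 45.5, 32.0 and 39.1 CPM in control 5w, 55.5, 66.3 and 64.3 in HFpEF, 87.8, 105 and 72.9 in control 9w and 62.5, 65.8 and 61.1 in untreated. It was at 58.5 and 53.3 CPM in EMPA, 53.2 and 57.3 in PFD and 56.3, 60.3 and 45.0 in EMPA + PFD. The control 5w libraries lay below those of HFpEF and control 9w without overlap, and control 9w lay above every other group. Mrps26 rose in HFpEF (0.68 ± 0.15 SE, adjusted p = 0.00921) and in control 9w (1.19 ± 0.15 SE, adjusted p = 1.85e-04) against control 5w, and both calls held with each library left out. It had no call in EMPA + PFD against untreated (−0.23 ± 0.15 SE, adjusted p = 0.295) or HFpEF (−0.20 ± 0.15 SE, adjusted p = 0.272). Mrps22 was at 73.8, 45.9 and 47.5 CPM in control 5w, 28.5, 30.0 and 39.5 in HFpEF and 61.7, 77.7 and 65.2 in EMPA + PFD. It fell in HFpEF (−0.77 ± 0.24 SE, adjusted p = 0.0375), which was lost without control 5w 1, HFpEF 1, HFpEF 2 or control 9w 1 (adjusted p = 0.158, 0.113, 0.106 and 0.05003, within 0.00807 to 0.158 over 19 omissions), and rose in EMPA + PFD against HFpEF (1.06 ± 0.24 SE, adjusted p = 0.00349). Mrps35 (1.00 ± 0.34 SE, adjusted p = 0.0281) and Mrps18b (1.10 ± 0.37 SE, adjusted p = 0.0240) rose in the same comparison, and Mrps34, at 36.3 ± 9.85 CPM (mean ± SD, n = 3) in HFpEF and 53.5 ± 3.88 in EMPA + PFD, did not pass (0.56 ± 0.32 SE, adjusted p = 0.156). The call of Mrps35 was lost without HFpEF 1, HFpEF 2 or EMPA + PFD 3 (adjusted p = 0.111, 0.0586 and 0.0652, within 0.00698 to 0.111 over 19 omissions) and that of Mrps18b without HFpEF 1, HFpEF 2 or EMPA + PFD 2 (adjusted p = 0.0972, 0.0575 and 0.0664, within 0.00704 to 0.0972 over 19 omissions). Mrps36, the dehydrogenase component, was at 50.9, 103 and 109.9 CPM in HFpEF, 210.5, 66.8 and 181 in untreated and 232, 221 and 207 in EMPA + PFD, and rose in EMPA + PFD against HFpEF (1.33 ± 0.41 SE, adjusted p = 0.0162) unless HFpEF 1 was left out (adjusted p = 0.0690).

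**Figure D2:**
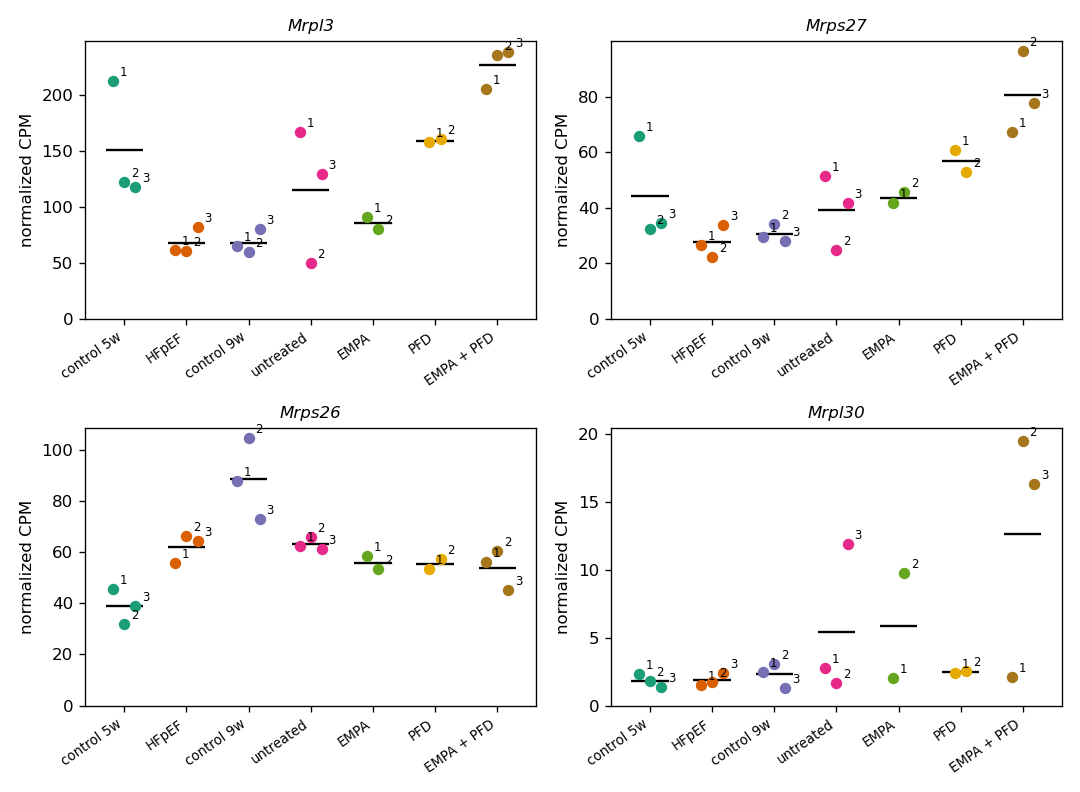
CPM of Mrpl3, Mrps27, Mrps26 and Mrpl30 in each of the 19 libraries, by group; each point is a library. Mrpl3 and Mrps27 are above every HFpEF library in all 3 EMPA + PFD libraries, Mrps26 is lower in control 5w than in HFpEF and control 9w, and Mrpl30 is split between 4 libraries of 80 to 163 counts and 15 of 13 to 27.

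Onset of disease was compared at week 5, in HFpEF against control 5w. The summed ventricular cardiomyocyte markers were at 44389 CPM or more in each control 5w library and 38245 or less in each HFpEF library. Atrial and skeletal muscle markers were also lower in HFpEF without overlap, and the other marker lists overlapped. The part of these markers in the members' result was not tested. Of the 71 members, 6 fell (Mrpl3, Mrpl49, Mrpl51, Mrps2, Mrps10 and Mrps22) and 1 rose (Mrps26), while 10% of all tested genes fell and 9.77% rose. The falls were spread over both subunits, with 3 of 45 large and 3 of 25 small subunit members. The members' median log2 fold change was −0.40, beside 0.02 over all tested genes, and it turned to 0.059 with voom, while the fitted values from edgeR ran from −1.78 to 0.68. With a 2-fold change required as well, 3 members passed, beside 8.64% of all genes in either direction, and in 15 members every HFpEF library was below every control 5w library, beside 19.1%. The count changed with single libraries and was 2 without control 5w 1, 3 without HFpEF 1, 2 without HFpEF 2 and 24 without untreated 2, and the median was −0.051 without control 5w 1. Without HFpEF 1 and 3, the HFpEF libraries with no Eif2s3y counts, 2 members were called, and without control 5w 1 and untreated 2, a setting chosen after seeing the data, 8 were, with a median of −0.058. DESeq2 called 12 (26.0% of all genes) and voom with quality weights, which gave control 5w 1 a weight of 0.196, called 14 (40.5%), of which 7 were higher, while edgeR on the 6 libraries of these groups alone called 0, so that the call of Mrps26 was lost there too.

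The same control hearts served as the reference for the passage of time, in control 9w against control 5w, so this comparison shares its control libraries with the onset comparison. RT1-CE16 had at most 3 counts in every control 5w library and at least 308 in every control 9w library. A difference that goes with this gene cannot be told apart from time here, and no omission of a single library parts them. The summed cardiomyocyte markers were at 44389 CPM or more in each control 5w library and 43677 or less in each control 9w library. Skeletal muscle and leukocyte markers were also lower in control 9w without overlap, endothelial and adipocyte markers higher, and the other marker lists overlapped. The part of these markers in the members' result was not tested. Here 8 members fell (Mrpl3, Mrpl15, Mrpl17, Mrpl49, Mrpl51, Mrps2, Mrps10 and Mrps18a) and 2 rose (Mrpl54 and Mrps26), beside 17.1% and 17.3% of all tested genes. The median was −0.15, beside −0.04 over all genes, and 25 of the members were fitted higher. A fold change of at least 2 was met by 5 of the called members, beside 14.6% of all genes. The count was 2 without control 9w 1 and 1 without control 9w 2, and without control 5w 1 the median turned to 0.18 and 9 members were called, all higher, with all 8 falls lost and 7 rises gained beside Mrpl54 and Mrps26. With control 5w 1 and untreated 2 left out, 21 members were called, 14 of them higher, with a median of 0.17. The share of all genes called in that fit is not given. With all libraries, voom called 42 (70.6% of all genes), of which 28 were higher, with a median of 0.15. Fitting the libraries of these groups alone left 6 calls, with the replicate number added to the model the calls of Mrpl51 and Mrpl54 were lost, and with the filter of at least 1 count in any library that of Mrpl54 was. The direction of the members' median over these weeks turned with the omission of control 5w 1, and the rise of Mrps26 was called with each library left out.

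In established disease at week 9, untreated against control 9w, the members did not pass the test. edgeR called 0 members higher and 0 lower, beside 0.573% and 1.17% of all tested genes and 0.888% with the 2-fold minimum, while 2 members had an unadjusted p under 0.05 (18.1% of all genes), DESeq2 called 1 (6.69% of all genes) and voom 31 (40.3% of all genes), 30 of them higher. All 3 untreated libraries had 0 Eif2s3y counts and all 3 of control 9w had over 0, so a difference that goes with this gene cannot be told apart from the disease here. The median was 0.09, beside 0.01, and it turned to −0.12 without untreated 1 and was 0.35 without untreated 2. The untreated group spans 49.4 CPM of Mrpl3 in untreated 2 to 167 in untreated 1, and without untreated 2 edgeR called 2 members, or 12 when control 5w 1 was left out as well. Between the disease groups, untreated at week 9 against HFpEF at week 5, 69 of 71 members were fitted higher with a median of 0.34 (−0.01 over all genes). RT1-CE16 had at least 308 counts in every untreated library and at most 3 in every HFpEF library. A difference that goes with this gene cannot be told apart from the progression here. None was called by edgeR (0 higher and 0 lower, beside 0.137% and 0.0807% of all genes and 0.186% with the 2-fold minimum), 3 had an unadjusted p under 0.05 (22.6% of all genes), DESeq2 called 0 (7.75%) and voom 19 (27.8%). Without untreated 2 the count was 16, and without it and control 5w 1 42, all of them higher. The share of all genes called in these fits is not given, so the counts do not show a change particular to the members. The disease effect at week 9 minus that at week 5, tested as an interaction, was called higher in 6 members (Mrpl3, Mrpl15, Mrpl49, Mrpl51, Mrps2 and Mrps10) and lower in 1 (Mrps26), beside 9.65% and 10.1% of all genes, with a median of 0.50, and 6 of the 7 also met the 2-fold minimum, beside 11.9% of all genes. That count was 4 without control 5w 1, HFpEF 1 or HFpEF 2, 3 without control 9w 1 or untreated 3, 2 without control 9w 2 or untreated 1, and 31 without untreated 2, or 27 without control 5w 1 and untreated 2, and 2 in a fit of these groups alone.

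Treatment was compared with untreated disease at week 9, where EMPA + PFD stood highest. In EMPA + PFD against untreated, 2 members rose, Mrps27 and Mrpl10, and 0 fell, beside 6.47% and 5.34% of all tested genes, and 22 members, 31.0% of the 71, had an unadjusted p under 0.05, beside 32.7% of all genes. Eif2s3y likewise had 0 counts in every untreated library and over 0 in every EMPA + PFD and EMPA library. These treatments thus cannot be told apart from a difference that goes with this gene, and no omission of a single library parts them. The EMPA libraries were among those with 0 to 3 counts of RT1-CE16, and the untreated libraries among those with 308 to 922. For EMPA alone, a difference that goes with RT1-CE16 therefore cannot be told apart from the treatment either. The summed cardiomyocyte markers were at 76195 CPM or more in each EMPA + PFD library and 67040 or less in each untreated library. Skeletal muscle markers were also higher without overlap, leukocyte, endothelial and smooth muscle and pericyte markers lower without overlap, and the fibroblast markers overlapped. The part of these markers in the members' result was not tested. Of the members, 66 were fitted higher, with a median of 0.42 beside −0.03 over all genes, and Mrpl23, Mrpl52, Mrpl54, Mrpl57 and Mrps26, named after their values were seen, were fitted lower. In 36 members every EMPA + PFD library was above every untreated library, beside 18.7% of all genes. Of the called members 1, Mrps27, also met the 2-fold minimum, beside 3.71% of all genes in either direction. DESeq2 called 9 members (20.6% of all genes) and voom 16 (29.9%), all of the members higher, while edgeR on the 6 libraries of these groups alone called 0, and the call of Mrpl10 was lost with upper quartile normalization and with the filter of at least 1 count in any library. Leaving out EMPA + PFD 2, EMPA + PFD 3, untreated 2 or untreated 3 gave 0 calls, leaving out control 5w 2 or 3, HFpEF 3, control 9w 1 or 2, or any EMPA or PFD library gave 1, and leaving out untreated 1 or control 5w 1 gave 12 and 11, and 1 was called without control 5w 1 and untreated 2. Of all genes called in this comparison 54.8% were higher with TMM scaling and 38.3% with upper quartile scaling, and the members' median was 0.34 with the latter. With EMPA alone the members' median was 0.14 (0.01 over all genes, and −0.075 for the members with voom) and with PFD alone 0.37 (−0.02). Without untreated 2 these medians were −0.16 and 0.094, and that of EMPA + PFD was 0.18. edgeR called 0 members for EMPA, beside 0.0161% of all genes higher and 0.0242% lower (0.0404% with the 2-fold minimum), with 0 at an unadjusted p under 0.05 (8.59% of all genes) and 0 by DESeq2 or voom. It called 0 for PFD, beside 0.00807% higher and 0.00% lower (0.00807% with the 2-fold minimum), with 1 at an unadjusted p under 0.05 (5.12% of all genes) and 0 by DESeq2 or voom, and in 27 members both PFD libraries were above every untreated library, beside 11.4%. Without control 5w 1 and untreated 2 edgeR called 0 members for EMPA and 0 for PFD. The summed cardiomyocyte markers were at 69333 and 71689 CPM in PFD, above each untreated library. Skeletal muscle and erythroid markers were also higher in PFD without overlap, endothelial and smooth muscle and pericyte markers lower, and the other marker lists overlapped. The part of these markers in the PFD result was not tested. The 3 treatment comparisons share the untreated libraries, and with 2 libraries in EMPA and in PFD a missed call does not show that a drug left the members unchanged. Whether EMPA + PFD differed from each drug alone was not tested.

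The most members were called between EMPA + PFD at week 9 and HFpEF at week 5, the state before treatment, where week and treatment differ together and cannot be told apart. RT1-CE16 had at most 3 counts in every HFpEF library and at least 308 in every EMPA + PFD library. A difference that goes with this gene cannot be told apart from week and treatment here. Eif2s3y had 0 counts in HFpEF 1 and HFpEF 3 and over 0 in every EMPA + PFD library. Of the 71 members 41 rose and 0 fell, beside 22.3% and 24.3% of all tested genes. With the 2-fold minimum 22 passed, all of them rises, beside 22.7% of all genes in either direction. They comprised 24 of 45 large subunit and 16 of 25 small subunit members, and Mrps36. Members classed as bacterial homologues and as specific to mitochondria were both among them. They were 12 of 24 and 12 of 21 in the large subunit and 9 of 15 and 7 of 10 in the small one. The median was 0.75, beside −0.09 over all genes, and every EMPA + PFD library was above every HFpEF library in 60 members, beside 26.9%. Mrpl52, Mrpl54 and Mrps26, named after their values were seen, were fitted lower, without a call. The count was 22 without HFpEF 1 and lay between 22 and 52 with each of the 19 libraries left out, and 20 of the 41 were called each time (Mrpl3, Mrpl4, Mrpl10, Mrpl15, Mrpl16, Mrpl35, Mrpl40, Mrpl43, Mrpl44, Mrpl45, Mrpl46, Mrpl50, Mrpl51, Mrps2, Mrps5, Mrps9, Mrps10, Mrps22, Mrps27 and Mrps30). Besides those described above, the called members were Mrps14 (0.99), Mrpl2 (0.97), Mrpl37 (0.97), Mrps23 (0.87) and Mrps25 (0.78), whose calls were lost without HFpEF 1 alone, and Mrpl49 (0.94), whose call was lost without HFpEF 2 (adjusted p = 0.0757, within 0.00356 to 0.0757 over 19 omissions). Mrps15 (0.96), Mrps17 (0.51), Mrps31 (0.82), Mrpl17 (0.58), Mrpl41 (0.60) and Mrps16 (0.73) were each lost without HFpEF 1 or EMPA + PFD 2. Of these, Mrpl17, Mrpl41 and Mrps16 were also lost without HFpEF 2 or EMPA + PFD 1, Mrps17 without EMPA + PFD 1, Mrpl41, Mrps16 and Mrps31 without EMPA + PFD 3, and Mrps16 without control 9w 1. Mrpl1 (0.97 ± 0.38 SE, adjusted p = 0.0485) was lost with any library other than control 5w 1, control 5w 2, control 5w 3, untreated 1 or untreated 2 left out (adjusted p from 0.0154 to 0.138 over 19 omissions). Under other settings the calls of Mrpl1, Mrpl17, Mrpl41, Mrps12, Mrps16 and Mrps17 were lost with upper quartile normalization, those of Mrpl1, Mrpl17 and Mrps16 with the filter of at least 1 count in any library, those of Mrpl1 and Mrps16 with the replicate number added to the model, and that of Mrps12 with voom. Without HFpEF 1 the adjusted p of the 19 members whose calls were lost ran from 0.0545 to 0.151. The log2 fold changes of the 41 ran from 0.51 to 2.74, and those of the other 30 from −0.20 to 0.74. DESeq2 called 44 (50.2% of all genes) and voom 46 (52.0%), all of the members higher. Without control 5w 1 and untreated 2, 56 were called, and the share of all genes called in that fit is not given. Upper quartile scaling moved the median of all genes by −0.11, and the members' median was then 0.64. Of the ventricular cardiomyocyte markers, Myh6, Tnnt2, Tnni3, Actc1, Ryr2 and Pln rose in this comparison, and of the fibroblast markers Col1a1, Col3a1, Pdgfra and Lum fell, as did 7 of the 8 leukocyte markers, and the part of these in the members' result was not tested.

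**Figure D3:**
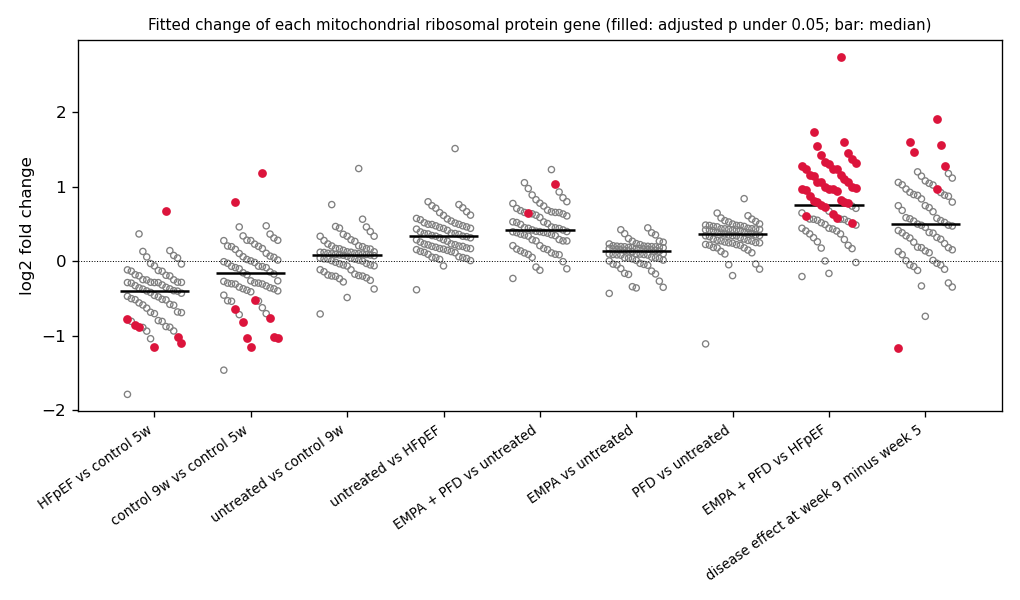
Log2 fold change of each of the 71 members in the compared groups, from edgeR; each point is a member and filled points passed an adjusted p of 0.05. In EMPA + PFD against HFpEF the median is 0.75 and 41 members passed, while 0 passed in untreated against control 9w or HFpEF and with EMPA or PFD alone.

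The members act with other nuclear genes of mitochondrial translation, which were followed as lists. Beside their counts stand the shares of all tested genes, of which 22.3% rose and 24.3% fell in EMPA + PFD against HFpEF, 6.47% and 5.34% in EMPA + PFD against untreated, and 9.77% and 10% in HFpEF against control 5w. Of 14 tested translation factors, 12 rose and 0 fell in EMPA + PFD against HFpEF, with a median of 0.92. Taco1, which promotes translation of a cytochrome oxidase subunit, had a log2 fold change of 2.02, and Lrpprc, which stabilizes mitochondrial messengers, one of 1.78. In HFpEF against control 5w 3 of them fell, including Taco1 (−1.51) and the ribosome recycling gene Gfm2 (−1.33), and in EMPA + PFD against untreated 2 rose, Gfm2 (0.94) and Mtif3 (0.59). Of 24 genes of ribosome assembly and rRNA modification, 13 rose and 1, Mpv17l2 (−0.75), fell in EMPA + PFD against HFpEF, led by the methyltransferase genes Mettl15 (2.12) and Nsun4 (1.42), the latter at 0.646, 1.01 and 1.16 CPM in HFpEF and 0.828, 3.59 and 3.13 in EMPA + PFD, so that the groups overlap and its rise rests on 2 libraries at low counts. Mettl15 also rose against untreated (1.88) as 1 of 5, with Afg3l2 (0.83), and fell in HFpEF against control 5w (−1.57) as 1 of 2, with Trub2 (−0.57). Of 17 genes that charge mitochondrial tRNAs, Gatc and Qrsl1 of the glutaminyl-tRNA amidotransferase included, 15 rose against HFpEF (Nars2 by 1.57 and Fars2 by 1.47), 5 rose against untreated (Nars2 by 1.00 and Aars2 by 0.95), and 4 fell in HFpEF, where the values were −0.98 for Nars2 and −0.77 for Lars2. Among 10 genes of mitochondrial transcription and DNA maintenance, 4 rose, Tefm (1.48) and Tfb2m (1.12) the most, and Top1mt (−0.57) fell in EMPA + PFD against HFpEF, while at week 5 Tefm fell (−1.10) and Top1mt rose (0.69). Among 9 regulators of mitochondrial biogenesis, 3 rose and 1 fell in EMPA + PFD against HFpEF. In HFpEF against control 5w 0 rose and 1 fell, and in EMPA + PFD against untreated 1 rose and 0 fell. The coactivator gene Ppargc1a fell in HFpEF (−1.91 ± 0.38 SE, adjusted p = 0.00545) and rose in EMPA + PFD against untreated (2.04 ± 0.37 SE, adjusted p = 0.00940) and HFpEF (3.01 ± 0.39 SE, adjusted p = 1.99e-04), where Ppargc1b (1.56) rose too and Pprc1 (−0.30) fell. Ppargc1a was at 45.4, 26.5 and 30.7 CPM in control 5w, 6.03, 9.08 and 12.3 in HFpEF, 25.5, 10.4 and 17.7 in untreated and 36.1, 94.0 and 90.3 in EMPA + PFD. Of 5 tested subunits with other names, 1, Dap3 (0.49), rose against HFpEF. Nuclear oxidative phosphorylation subunits (81 tested) had 42 rises and 1 fall in that comparison, with a median of 0.93, and cytosolic ribosomal proteins (77 tested) 1 rise and 66 falls, with a median of −0.59. In HFpEF against control 5w their medians were −0.50 and 0.35, beside −0.40 for the members, and in EMPA + PFD against untreated 0.33 and −0.21, beside 0.42. Whether the members differed from these lists was not tested, and transcripts encoded by mitochondrial DNA were not analysed here.

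Over time in the controls the lists were mixed. In control 9w against control 5w, where 17.3% of all tested genes rose and 17.1% fell, 2 of 14 translation factors fell, Taco1 (−1.30) and Gfm2 (−0.82). Among the 24 assembly genes 3 fell, Mettl15 (−2.02) and Trub2 (−0.73) the most, and 2 rose, Ngrn (0.47) and Dhx30 (0.39). Nars2 (−0.96) and Pars2 (−0.92) led 3 falls among 17 synthetase genes, beside a rise of Vars2 (0.74), and Polrmt, the mitochondrial RNA polymerase gene, rose (0.77) while Polg, that of the DNA polymerase, fell (−0.52). In the interaction, where 9.65% of all genes were higher, 4 of 14 translation factors were called, Taco1 (2.30) and Lrpprc (1.68) the highest, 2 of 24 assembly genes (Mettl15 2.26 and Trub2 1.02), 2 of 17 synthetase genes, Nars2 (1.53) among them, and 2 of 10 genes of transcription and DNA maintenance, Tefm (1.5) and Twnk (0.87), all higher. Of the 9 regulators in control 9w against control 5w, Gabpb1 (0.45) and Pprc1 (0.30) rose and Yy1 (−0.38) fell. In untreated against control 9w or HFpEF, and with EMPA or PFD alone, edgeR called 0 genes of each of these 6 pathway lists, where the largest counts at an unadjusted p under 0.05 were 6 synthetase genes in untreated against HFpEF and 3 in untreated against control 9w, while DESeq2 and voom were not counted for these lists, and calls of genes outside the members were not recomputed with libraries left out.

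Since many members moved together, their promoters were searched for letters of regulators of nuclear genes for mitochondria. RefSeq promoter sequences (build GRCr8), each with 250 bases before the gene start and a short stretch after it, were matched to 56 of the 71 members. Each motif was searched on both strands, and matches of different motifs did not overlap in any member promoter. The letters GCGCATGC, bound by NRF1, were in 5 of 56 member promoters (8.93%), 3.32% of all 19005 promoters and 4.82% of the 9711 promoters of tested genes. The letters CCGGAAG, bound by proteins of the ETS family such as GABPA, were in 20 of 56 member promoters (35.7%), 11.6% of all 19005 promoters and 17.1% of the 9711 promoters of tested genes. The letters AAGATGGC, bound by YY1, were in 14 of 56 member promoters (25.0%), 4.08% of all 19005 promoters and 5.43% of the 9711 promoters of tested genes. The letters TCAAGGTCA, bound by ESRRA, were in 0 of 56, 0.374% of all promoters and 0.257% of those of tested genes, which says only that these exact letters are not in these windows. Before the gene start lay NRF1 letters in 5 members, ETS letters in 12 and YY1 letters in 3, while in Mrpl3 the ETS letters lay after it. The promoter of Mrps18b held 3 kinds of letters and 6 others, those of Mrpl32, Mrpl36, Mrpl48, Mrps10, Mrps18a and Mrps27, held 2. The 250 bases before the start are shown for 3 members that rose in EMPA + PFD against HFpEF and hold ETS or NRF1 letters there. The bases shown for Mrps27 lie at chr2:32473954-32474203, those for Mrpl44 at chr9:88554800-88555049 and those for Mrps18b at chr20:2842756-2843005, all on the plus strand of GRCr8. Capitals mark the ETS letters in Mrps27, which stand on the other strand and read CTTCCGG here, and the NRF1 letters in Mrpl44 and Mrps18b, where matches on both strands overlap as GCGCATGCGC. A match is a description of the letters and was not tested as a binding site.
Mrps27: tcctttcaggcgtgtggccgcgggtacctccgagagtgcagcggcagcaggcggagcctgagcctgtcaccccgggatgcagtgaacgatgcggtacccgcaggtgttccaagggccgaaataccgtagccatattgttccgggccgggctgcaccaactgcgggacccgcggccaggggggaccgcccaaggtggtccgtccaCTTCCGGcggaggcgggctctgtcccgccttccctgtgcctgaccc
Mrpl44: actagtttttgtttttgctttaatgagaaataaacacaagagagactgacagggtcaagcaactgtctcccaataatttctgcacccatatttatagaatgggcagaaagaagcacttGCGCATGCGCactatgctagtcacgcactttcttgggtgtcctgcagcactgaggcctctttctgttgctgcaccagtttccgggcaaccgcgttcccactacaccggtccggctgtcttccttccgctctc
Mrps18b: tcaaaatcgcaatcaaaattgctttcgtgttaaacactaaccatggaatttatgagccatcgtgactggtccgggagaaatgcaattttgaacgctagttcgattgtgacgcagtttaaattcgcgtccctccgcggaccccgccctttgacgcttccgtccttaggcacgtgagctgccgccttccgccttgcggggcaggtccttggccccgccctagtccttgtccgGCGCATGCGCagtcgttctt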

How the data were processed

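Per the labels and the study's methods, the authors trimmed reads with Trim Galore, checked them with FastQC, aligned them to rn6 with HISAT2 and counted them on genes with HTSeq, and the deposited values are raw counts per gene symbol, with no strand or overlap setting stated. The authors left out 1 EMPA and 1 PFD sample for corrupted files. Here edgeR 4.0.16 in R 4.3.3 was used: filterByExpr kept 12388 of 17455 genes, TMM factors scaled the libraries, and the quasi-likelihood F test (robust) in a model of 7 groups gave 9 comparisons, with Benjamini-Hochberg adjustment over all tested genes and calls at an adjusted p under 0.05. CPM used TMM factors, with a prior count of 2 on the log2 scale, and totals of 7430539 to 13017754 counts set their precision. The model was also run on simulated data, and no result of that run is used here. Alternatives were RLE and upper quartile normalization, 2 filters on low counts, DESeq2 1.42.0, limma 3.58.1 (voom with sample quality weights), fits of the compared groups alone, a replicate block, the fold minimum of 2, omission of each library, of HFpEF 1 and 3, and, added after seeing the data, of control 5w 1 and untreated 2. Members, pathway lists of mitochondrial translation, oxidative phosphorylation subunits, cytosolic ribosomal proteins, cell type markers and promoter motifs were chosen with earlier results of these data known. Genes were named by rule: in each comparison the 3 largest called rises and falls, called members changed at least 2-fold or against the majority, 17 members set by role (Mrpl24, 1 of them, is not among the symbols), and up to 2 of the largest called rises and falls of each pathway list. Levels per length and transcripts encoded by mitochondrial DNA were left out.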

Additional observations from a re-analysis of the deposited data

Results flagged for a closer look

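For 7 members, 9.86% of the 71, the disease effect differed between the weeks by a test of the difference itself, the edgeR interaction of untreated against control 9w with HFpEF against control 5w, beside 19.7% of all tested genes, and 6 of the 7 met the 2-fold minimum, beside 11.9%. The effect on Mrpl3 was −1.15 ± 0.33 SE at week 5 and 0.76 ± 0.33 SE at week 9, a difference of 1.91 ± 0.46 SE, adjusted p = 0.0128, which was called with each of 19 libraries left out (adjusted p from 4.32e-04 to 0.0401). That on Mrpl15 was −1.04 ± 0.36 SE at week 5 and 0.56 ± 0.36 SE at week 9, a difference of 1.60 ± 0.50 SE, adjusted p = 0.0380, which was lost without control 5w 1, control 5w 3, HFpEF 1, HFpEF 2, control 9w 1, control 9w 2, untreated 1 or untreated 3 (adjusted p = 0.0862, 0.0522, 0.0730, 0.0843, 0.0788, 0.0865, 0.110 and 0.0870, within 0.00181 to 0.110 over 19 omissions). For Mrpl51 the effects were −1.10 ± 0.30 SE at week 5 and 0.47 ± 0.30 SE at week 9, a difference of 1.57 ± 0.42 SE, adjusted p = 0.0195, which was lost without control 9w 2 or untreated 1 (adjusted p = 0.0553 and 0.0617, within 0.00157 to 0.0617 over 19 omissions). Those on Mrps10 were −1.01 ± 0.29 SE at week 5 and 0.46 ± 0.29 SE at week 9, a difference of 1.47 ± 0.41 SE, adjusted p = 0.0223, which was lost without control 5w 1, control 9w 1, control 9w 2, untreated 1 or untreated 3 (adjusted p = 0.0533, 0.0541, 0.0593, 0.0687 and 0.0587, within 0.00127 to 0.0687 over 19 omissions). Mrpl49 had effects of −0.88 ± 0.30 SE at week 5 and 0.40 ± 0.30 SE at week 9, a difference of 1.28 ± 0.42 SE, adjusted p = 0.0464, which was lost with any library other than HFpEF 3 or untreated 2 left out (adjusted p from 0.00344 to 0.141 over 19 omissions). Mrps2 had effects of −0.86 ± 0.21 SE at week 5 and 0.11 ± 0.21 SE at week 9, a difference of 0.97 ± 0.30 SE, adjusted p = 0.0347, which was lost without control 5w 1, HFpEF 1, HFpEF 2, HFpEF 3, control 9w 1, control 9w 2, untreated 1 or untreated 3 (adjusted p = 0.0811, 0.0579, 0.0617, 0.0535, 0.0722, 0.0788, 0.105 and 0.0691, within 0.00305 to 0.105 over 19 omissions). Mrps26 went the other way, with 0.68 ± 0.15 SE at week 5 and −0.49 ± 0.15 SE at week 9, a difference of −1.16 ± 0.21 SE, adjusted p = 0.00354, which was called with each of 19 libraries left out (adjusted p from 0.00222 to 0.0116). In the fit of the libraries of these 4 groups alone 2 of the 71 members were called. The week 5 effects use control 5w 1, the highest library for the members, and the week 9 effects use untreated 2, the lowest: Mrpl3 was at 212 and 49.4 CPM there, and the part of these libraries in the differences was not tested beyond their omission. Eif2s3y had 0 counts in every untreated library and over 0 in every control 9w library, and at week 5 it had 0 in HFpEF 1 and HFpEF 3 alone. A difference that goes with this gene cannot be told apart from the week 9 effects.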

How the results depend on the processing

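The number of members called by edgeR was 7 in HFpEF against control 5w, 10 in control 9w against control 5w, 0 in untreated against control 9w, 0 in untreated against HFpEF, 2 in EMPA + PFD against untreated, 41 in EMPA + PFD against HFpEF and 7 in the interaction. It moved with DESeq2 to 12 in HFpEF against control 5w, 1 in untreated against control 9w and 9 in EMPA + PFD against untreated. With voom and sample quality weights it was 14 in HFpEF against control 5w, 42 in control 9w against control 5w, 31 in untreated against control 9w, 19 in untreated against HFpEF, 16 in EMPA + PFD against untreated and 27 in the interaction, with a median of 0.059 in HFpEF against control 5w. In fits of only the libraries of the groups compared it was 0 in HFpEF against control 5w, 6 in control 9w against control 5w, 0 in EMPA + PFD against untreated and 2 in the interaction. Upper quartile normalization gave 1 in EMPA + PFD against untreated, and so did the filter of at least 1 count in any library (1 in EMPA + PFD against untreated). A fold change of at least 2 as well gave 3 in HFpEF against control 5w, 5 in control 9w against control 5w, 1 in EMPA + PFD against untreated and 22 in EMPA + PFD against HFpEF. Without HFpEF 1 and HFpEF 3 together it was 2 in HFpEF against control 5w. Without control 5w 1 and untreated 2 together, chosen after seeing the data, it was 21 in control 9w against control 5w, 12 in untreated against control 9w, 42 in untreated against HFpEF, 1 in EMPA + PFD against untreated and 27 in the interaction, with a median of −0.058 in HFpEF against control 5w and 0.17 in control 9w against control 5w. Except for the fold minimum, which only removes calls, the cause was not tested.

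With each of the 19 libraries left out in turn the count ran from 2 to 24 in HFpEF against control 5w, 1 to 13 in control 9w against control 5w, 0 to 2 in untreated against control 9w, 0 to 16 in untreated against HFpEF, 0 to 12 in EMPA + PFD against untreated, 0 to 0 in EMPA against untreated, 0 to 0 in PFD against untreated, 22 to 52 in EMPA + PFD against HFpEF, 2 to 31 in the interaction, and the median from −0.57 to −0.051 in HFpEF against control 5w, −0.33 to 0.18 in control 9w against control 5w, −0.12 to 0.35 in untreated against control 9w, 0.15 to 0.60 in untreated against HFpEF, 0.18 to 0.63 in EMPA + PFD against untreated, −0.16 to 0.31 in EMPA against untreated, 0.094 to 0.57 in PFD against untreated, 0.66 to 0.89 in EMPA + PFD against HFpEF, 0.18 to 0.76 in the interaction. Where 1 library was left in a group it was taken to vary like the other groups, and the cause of these ranges was not tested. With a replicate block, the replicate number added to the model, the counts in the order just given were 8, 8, 0, 0, 2, 0, 0, 41 and 7, and of the 41 in EMPA + PFD against HFpEF 39 were the same genes, with Mrpl1 and Mrps16 lost and Mrpl32 and Mrps18a gained. The replicate numbers do not pair samples in the labels, and 5 of 19 libraries correlated best with a library of their own number.

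For the called members' own log2 fold changes, 1648 of 1883 values under these settings kept their direction and were called, 235 kept their direction without a call and 0 reversed. Lengths of transcripts were not used here, so the planned comparison of coding with transcript length was not run and the members of highest and lowest level per length were not named. Groups of 2 and 3 libraries with a biological coefficient of variation of 0.257 limit the precision of every comparison, and depth limits Mrpl36, which had 7 counts in EMPA 1.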

Other observations

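Mrpl30 was split between libraries in a way that crossed the groups. It had 113 counts in untreated 3, 80 in EMPA 2, 163 in EMPA + PFD 2 and 156 in EMPA + PFD 3, against 13 to 27 in the other 15 libraries. Among all genes with at least 20 counts in each of these 4 libraries, Mrpl30 alone had a lowest CPM there of over 2 times the highest CPM elsewhere. Its log2 fold change between EMPA + PFD and HFpEF rests on EMPA + PFD 2 and EMPA + PFD 3, since EMPA + PFD 1 had 18 counts.

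Mrpl36 had 150, 55 and 157 counts in control 5w, 75, 21 and 17 in HFpEF and 7 and 32 in EMPA, and Mrpl53 had 14 to 44 counts over all libraries, so that their ratios are imprecise. Mrpl52 was at 66.4, 43.2 and 42.1 CPM in control 5w, 57.3, 53.8 and 56.4 in HFpEF, 51.1, 55.4 and 53.9 in untreated and 50.1, 47.9 and 51.5 in EMPA + PFD, where most other members spanned a wider range. In the RefSeq annotation of GRCr8, 15 of 70 members found there overlap another protein-coding gene. They include Mrpl43 with Twnk, Mrpl16 with Stx3, Mrpl47 with Actl6a and Ndufb5, and Mrpl36 with Ndufs6, and the counts were made on another build, so that reads shared with these genes cannot be told apart here.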
